A study of Mus musculus with 3 samples.

Results

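The genes described here encode inhibitors that MAP kinase signalling uses to limit itself: 7 dual-specificity phosphatases (Dusp1, Dusp2, Dusp4, Dusp5, Dusp6, Dusp10 and Dusp16) and 3 inhibitors of the Sprouty and Spred family (Spry1, Spry2 and Spred1). They were chosen by name, as the probe sets whose annotated symbol is one of these 10, out of 18820 genes with a probe set of their own. The names were picked with earlier results of these data known. Each of the 10 genes was represented by 1 probe set. A gene counted as past the filter on low values when its mean over the arrays reached the median of all gene means, a log2 value of 4.14; 9 of the 10 members and 9410 genes in all did so, and Spry1 did not.

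The values come from RAW264.7, a mouse macrophage cell line, kept in culture medium with serum and then given one albumin-bound fatty acid at 500 µM for 6 hours, with 2 fatty acid molecules per albumin molecule. Oleate is monounsaturated with a cis double bond, elaidate differs from it only in that this bond is trans, and palmitate is shorter and saturated. Each group had 1 array, and there was none of untreated cells. The line, the dose, the time and the albumin carrier were common to all groups. No difference below therefore has a replicate check or a p-value, and none is a response relative to no fatty acid. All 3 comparisons draw on the same 3 arrays, so palmitate minus elaidate follows from the other differences.

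MAP kinases pass signals from receptors and from cell stress through a cascade of kinases to ERK, JNK and p38. Dual-specificity phosphatases remove the activating phosphates from the threonine and tyrosine of these kinases, and many of their genes are themselves switched on by the pathway, which makes them a negative feedback. Sprouty and Spred proteins act higher up, between growth factor receptors, Ras and Raf. In macrophages these inhibitors are known for limiting the strength and length of inflammatory signalling.

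The labelled cell type was checked with markers. All 7 macrophage markers measured were past the filter, among them Cd68 at 11.77 on each array and Csf1r at 11.16, 11.05 and 10.70 on the oleate, elaidate and palmitate arrays. Of the 13 measured markers of fibroblasts, lymphocytes, epithelium and fat cells, only Col1a1 was past it, at 4.18 on each array. Median log2 values over all 35556 probe sets were 3.57, 3.58 and 3.61 on the oleate, elaidate and palmitate arrays. Values that differed by at most 1e-06 were taken as equal, and 2592 of the 9410 genes (27.5%) were equal on all 3 arrays. Equal genes stay in the base of every share and rank below.

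Against oleate, palmitate gave opposite differences in the phosphatase genes furthest from 0: Dusp1 was 3.21-fold higher and Dusp6 was 3.36-fold lower. Dusp5 and Dusp4 were higher by smaller amounts, Spred1 was a little lower, and Dusp2, Spry1 and Spry2 were equal. Dusp1 and Dusp6 were also more than 2-fold different between palmitate and elaidate, in the same directions, while between elaidate and oleate no member reached 1.5-fold.

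The stretches upstream of Dusp1, Dusp5 and Dusp6 are shown because these genes gave the largest differences, in both directions. Each is the 250 bases before the RefSeq start site in build GRCm38.p6, read 5′ to 3′ along the gene. Capitals mark matches, on either strand, to the cyclic AMP response element TGACGTCA, to its core TGACG, or to the serum response element. The stretch of Dusp1 lies at chr17:26508473-26508722 on the minus strand, that of Dusp5 at chr19:53528895-53529144 on the plus strand and that of Dusp6 at chr10:99262981-99263230 on the plus strand.
Dusp1: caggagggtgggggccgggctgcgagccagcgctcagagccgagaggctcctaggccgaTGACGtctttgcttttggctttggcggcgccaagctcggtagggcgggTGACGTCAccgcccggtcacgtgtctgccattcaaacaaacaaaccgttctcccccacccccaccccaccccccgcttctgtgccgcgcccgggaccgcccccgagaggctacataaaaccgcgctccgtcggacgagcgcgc
Dusp5: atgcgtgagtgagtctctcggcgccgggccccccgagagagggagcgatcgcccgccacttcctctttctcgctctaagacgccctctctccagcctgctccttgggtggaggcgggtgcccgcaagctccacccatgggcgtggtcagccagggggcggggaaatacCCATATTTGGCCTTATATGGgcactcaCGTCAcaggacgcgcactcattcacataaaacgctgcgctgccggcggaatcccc
Dusp6: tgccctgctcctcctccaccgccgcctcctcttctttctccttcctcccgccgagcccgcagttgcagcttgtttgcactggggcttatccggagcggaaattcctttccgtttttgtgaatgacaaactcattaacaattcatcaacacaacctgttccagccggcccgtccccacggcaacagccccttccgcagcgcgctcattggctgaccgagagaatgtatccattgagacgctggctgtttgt

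A RefSeq promoter window, from 250 bases before to 50 after the start, was found for 9 of the 10 members; Dusp4 was the one without. The full element TGACGTCA was found in 1 member window, that of Dusp1, where it begins 143 bases before the start, and in 1.79% of all 32851 windows. The core TGACG, which is part of the full element, was found in 4 of the 9, those of Dusp1, Dusp2, Dusp5 and Dusp16, and in 20.8% of all windows. In Dusp1 a separate core begins 191 bases before the start. The serum response element was found in the Dusp5 window alone among the 9, as adjoining matches that begin 82 and 72 bases before the start, and in 1.63% of all windows. None of the 9 held the AP-1 motif TGANTCA (7.81% of all windows), the C/EBP-ATF motif TGATGNAA (3.97%) or the NF-kB motif (4.51%). The Dusp6 window held none of the motifs searched. A match describes letters only; binding was not measured.

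**Figure D1:**
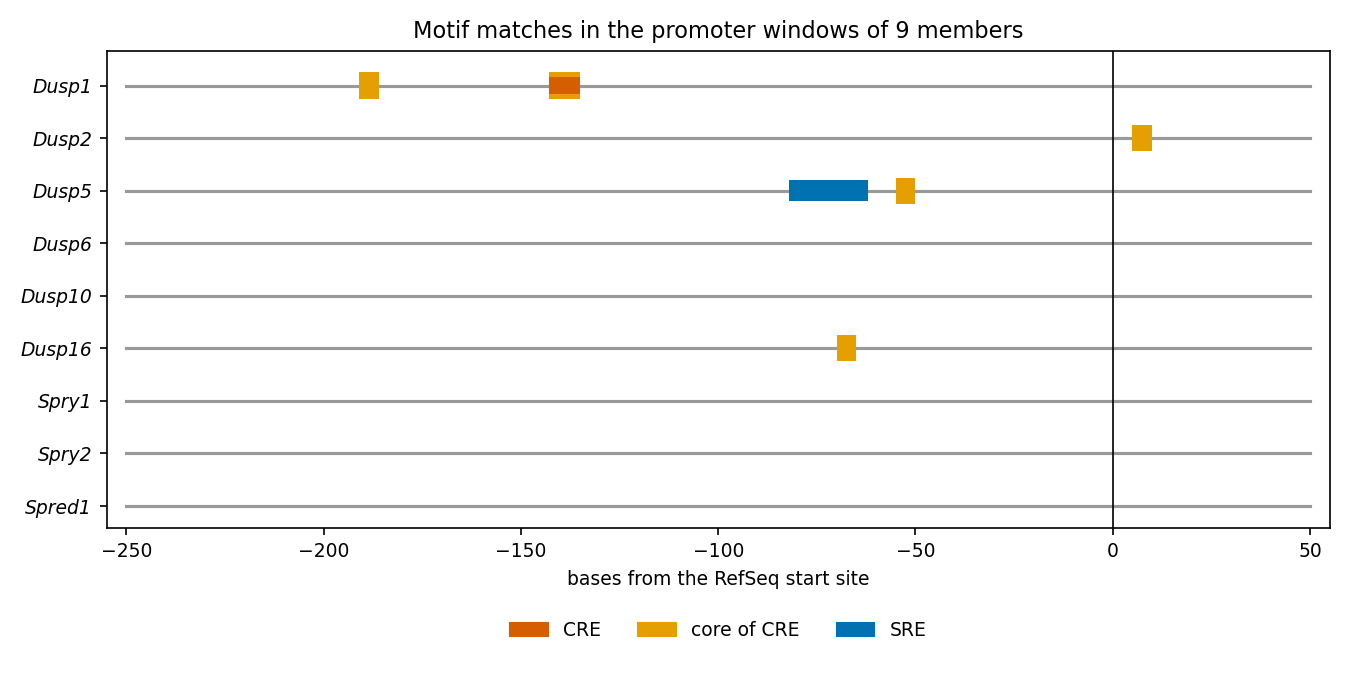
Motif matches in the promoter windows of 9 members, drawn along the bases from the RefSeq start site (x axis, from 250 before to 50 after; vertical line, start). Orange-red boxes are the full cyclic AMP response element, yellow boxes its core and blue boxes the serum response element; the full element appears for Dusp1 alone and the serum response element for Dusp5 alone.

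The phosphatases that act in the nucleus come first. Dusp1 (probe set 10449284) is a stress-inducible phosphatase of p38 and JNK, and of ERK to a lesser degree, known in macrophages for limiting cytokine production. Its log2 value was 8.94 with oleate, 8.86 with elaidate and 10.62 with palmitate. The palmitate array was the high one, and the others were close together. Palmitate exceeded oleate by 1.68 and elaidate by 1.77, the latter a 3.40-fold difference. Elaidate minus oleate was -0.08. Among the 9410 genes Dusp1 ranked number 46 from the highest in palmitate minus oleate and number 23 in palmitate minus elaidate.

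Dusp5 (probe set 10463945), a nuclear phosphatase specific for ERK, had log2 values of 6.04 with oleate, 5.90 with elaidate and 6.79 with palmitate. Dusp4 (probe set 10571312), a nuclear relative of Dusp1, had 9.59, 9.57 and 10.21 in the same order. Both were highest on the palmitate array, as Dusp1 was, and lowest on the elaidate array. Dusp5 with palmitate exceeded its oleate value by 0.75 (1.68-fold) and its elaidate value by 0.89 (1.85-fold). For Dusp4 these differences were 0.63 (1.54-fold) and 0.65 (1.57-fold). Neither reached 2-fold, and 5.75% and 8.29% of the genes past the filter differed at least as much as Dusp5 and Dusp4 between palmitate and oleate. Elaidate minus oleate was -0.14 for Dusp5 and -0.02 for Dusp4. Dusp2 (probe set 10475782), a nuclear phosphatase best known from activated immune cells, stood at 4.98 on all 3 arrays, equal within the tolerance.

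Dusp6 (probe set 10366043) is the cytoplasmic phosphatase selective for ERK, and its transcript is widely used as a readout of ERK activity. Its log2 value was 9.15 with oleate, 8.84 with elaidate and 7.39 with palmitate. The palmitate array was the low one and elaidate held the middle. Palmitate minus oleate was -1.75 and palmitate minus elaidate was -1.45, a 2.72-fold lower value. Dusp6 ranked number 15 from the lowest of 9410 genes in palmitate minus oleate and number 21 in palmitate minus elaidate. It also had the member difference furthest from 0 between elaidate and oleate, at -0.30 (1.23-fold), a size that 3.93% of genes reached. In that comparison 44.1% of the genes past the filter were equal, which keeps this share low.

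Dusp1 and Dusp6 were the highest and the lowest member in both palmitate comparisons, so a wide gap between them follows from picking them. The Dusp1 difference exceeded the Dusp6 difference by 3.43 on the log2 scale in palmitate minus oleate and by 3.21 in palmitate minus elaidate. In elaidate minus oleate the gap was 0.22. In a bulk culture a lower value can come from fewer expressing cells or from less RNA per cell, and these arrays cannot tell these apart.

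**Figure D2:**
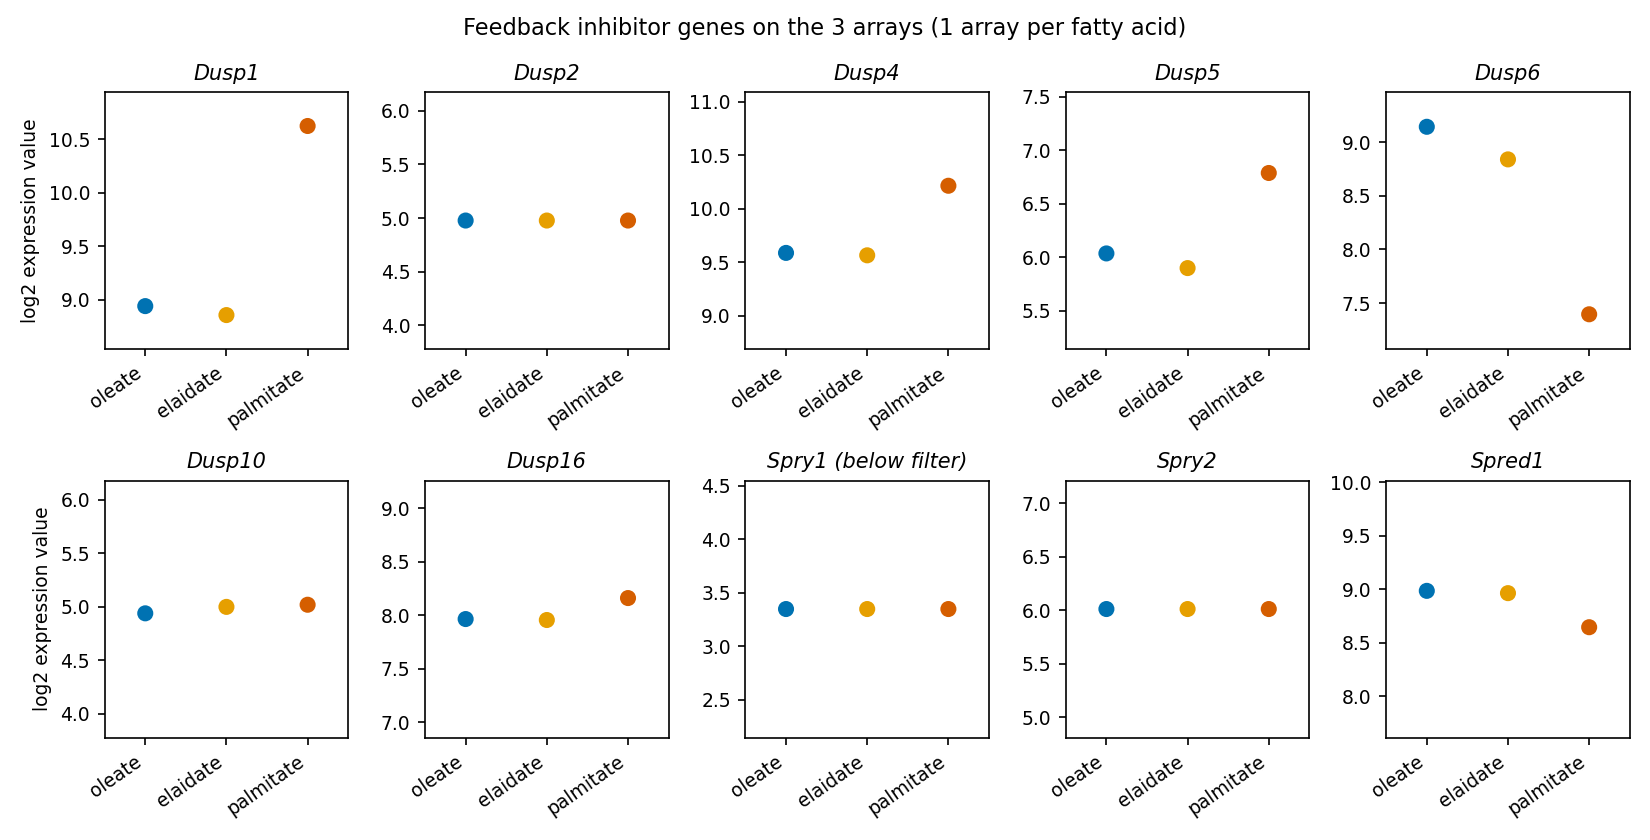
Log2 expression value (y axis) of each member on the oleate, elaidate and palmitate arrays (x axis), 1 point per array and no error bars because there is 1 array per fatty acid; every panel spans the same height around its own middle, so differences but not heights compare between panels. Dusp1, Dusp4 and Dusp5 are highest with palmitate, Dusp6 is lowest with palmitate at 7.39, and Dusp2, Spry1 and Spry2 are equal on all arrays.

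Dusp16 and Dusp10, which act on JNK and p38, differed less than Dusp1 did. Dusp16 (probe set 10548735), which shuttles between nucleus and cytoplasm, had log2 values of 7.97, 7.96 and 8.16 on the oleate, elaidate and palmitate arrays. Palmitate exceeded each of the other arrays by 0.20, and elaidate minus oleate was -0.01. Dusp10 (probe set 10352448) had 4.94, 5.00 and 5.02 in that order, not far above the filter limit. It was the one member for which elaidate exceeded oleate, by 0.06, and its palmitate minus oleate difference was 0.08. A difference of that size or more was found for 49.6% of the genes past the filter.

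Of the inhibitors upstream of Raf, only Spred1 gave different values. Spred1 (probe set 10474671), which brings the Ras inhibitor neurofibromin to the membrane, stood at 8.98 with oleate, 8.96 with elaidate and 8.64 with palmitate. Palmitate was the low array, with differences of -0.34 (1.27-fold) from oleate and -0.32 (1.25-fold) from elaidate. That is a common size in this comparison, reached by 20.3% and 19.6% of genes. Spry2 (probe set 10422227), a receptor tyrosine kinase antagonist, was 6.01 on all 3 arrays. Spry1 (probe set 10491721), its close relative, was 3.35 on all 3 arrays and lay under the filter. Equal values were thus found for 3 of the 10 members, and for 2 of the 9 past the filter, where 27.5% of all genes were equal. The step that gave identical values is not stated in the labels, so an equal value is a property of the deposited table and does not show that the transcript did not differ.

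Counted together, 2 of the 9 members past the filter were at least 2-fold different between palmitate and oleate, Dusp1 higher and Dusp6 lower, where 2.87% of all genes were. The members were chosen with earlier results of these data known, so the counts here are no test of the group. In the higher direction the share of all genes was 1.65% and in the lower direction 1.22%. Between palmitate and elaidate the same 2 members were past 2-fold, where 1.85% of all genes were, 0.978% higher and 0.871% lower. Between elaidate and oleate 0 members were, beside 0.106% of all genes. With a limit of 1.5-fold, Dusp4 and Dusp5 joined and 4 of the 9 members differed in each palmitate comparison, where 9.30% and 7.61% of all genes did. No member reached 1.5-fold between elaidate and oleate, where 0.786% of genes did. With a limit of 3-fold, Dusp1 and Dusp6 remained against oleate, where 0.861% of genes did, and Dusp1 remained against elaidate, where 0.510% did.

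By direction alone, 5 of the 9 members were higher with palmitate than with oleate, 2 were lower and 2 were equal. Their median difference was 0.08. Over all 9410 genes the median was 0, and 30.9% were higher, 36.8% lower and 32.3% equal. Against elaidate the members split in the same numbers, with a median of 0.02. On the elaidate array 6 of the 9 were lower than on the oleate array, 1 was higher and 2 were equal, and the median was -0.02; of all genes 24.3% were lower, 31.5% higher and 44.1% equal. Several of these directions rest on small differences, with Dusp16 at -0.01 and both Spred1 and Dusp4 at -0.02. The split also depends on equal values. With arrays centred on their medians, Dusp2 and Spry2 stood at -0.01, and so did the median of all genes. The member furthest from 0 between the trans and the cis fatty acid was Dusp6 at -0.30. Without replicate arrays no interval can be put on these differences.

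**Figure D3:**
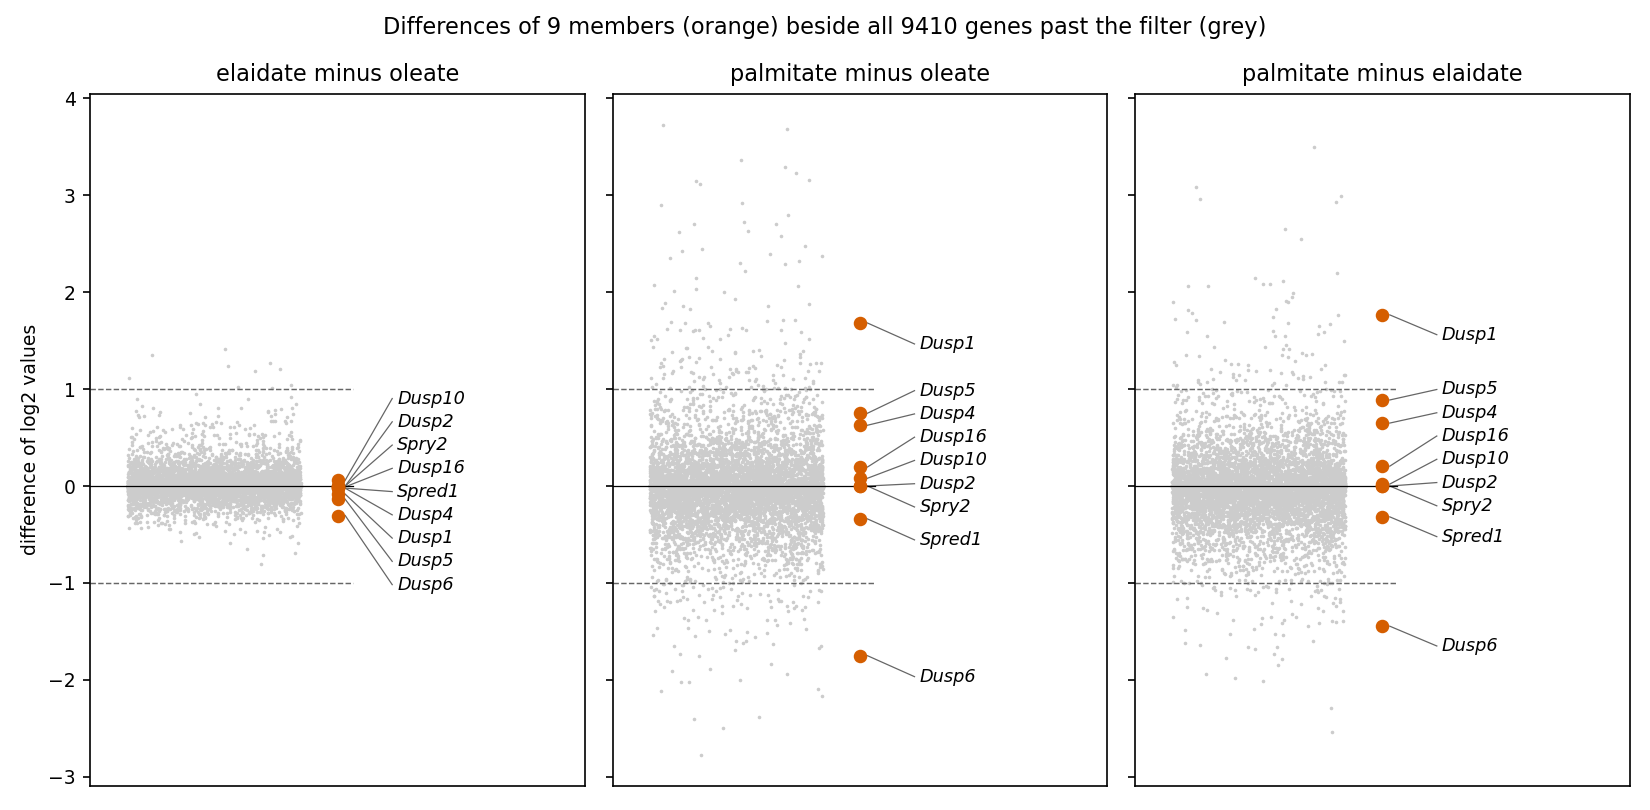
Differences of log2 values (y axis) in the 3 comparisons for the 9 members past the filter (orange, named) beside all 9410 genes past the filter (grey, spread sideways at random); dashed lines mark 2-fold. Dusp1 lies above and Dusp6 below the dashed lines in both palmitate comparisons, and all members lie between the lines in elaidate minus oleate.

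The macrophage markers moved with the palmitate array too. Of the 7, 6 were lower with palmitate than with oleate and 1, Cd68, was equal, with differences from -0.83 for the lysozyme gene Lyz2 to 0 and a median of -0.36. None of the 7 was 2-fold different in any comparison. Whether the marker shift had a part in the differences of Dusp6, Spred1 or any other member was not tested.

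The remaining genes of the pathway were taken from lists by role, drawn up with earlier results of these data known. Of the other dual-specificity phosphatases 9 of 13 were past the filter. Between palmitate and oleate 1 was higher, 4 were lower and 4 were equal, with none past 2-fold. Dusp7, the cytoplasmic relative of Dusp6 that also prefers ERK, was the furthest from 0: its values of 9.14, 9.06 and 8.24 on the oleate, elaidate and palmitate arrays gave -0.90 for palmitate minus oleate. Of the other Sprouty and Spred genes, Spred2 was lower by a similar amount to Spred1, at -0.33. Spred3 was 4.73 on the oleate and palmitate arrays and 4.43 on the elaidate array, not far above the filter limit. Spry3 and Spry4 were under the filter and equal on all 3 arrays.

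Among 13 genes of Ras, its adaptors and its regulators past the filter, 2 were higher, 7 lower and 4 equal in palmitate minus oleate. The adaptor Gab2 at 0.84 and Rasgrp3, an exchange factor that activates Ras, at -0.54 were the furthest from 0. Rasgrp3 was 6.71, 7.30 and 6.17 on the oleate, elaidate and palmitate arrays, so elaidate was the high one, and it was past 2-fold in palmitate minus elaidate at -1.13. Of 14 Raf and other MAP3 kinase genes 3 were higher, 8 lower and 3 equal against oleate. Map3k11, a kinase upstream of JNK, was at -0.93 and Map3k8, which links Toll-like receptors to ERK in macrophages, at -0.63. No member of that list passed 2-fold.

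At the lower tiers, 2 of 5 MAP2 kinase genes were lower and 3 equal in palmitate minus oleate, with Map2k3, an activator of p38, at -0.40. Of 7 MAP kinase genes 3 were higher, 2 lower and 2 equal. Mapk14, which encodes the main p38 kinase of macrophages, was past 2-fold: 8.86 with oleate, 8.61 with elaidate and 7.74 with palmitate, a difference of -1.12. The order of its arrays was that of Dusp6, an order also found for Dusp7, Ccnd1, Fos and the macrophage markers Lyz2 and Csf1r. Of 7 kinases activated by MAP kinases 2 were higher, 4 lower and 1 equal, with Mknk2 at -0.80 and Mknk1 at 0.70; both phosphorylate a translation initiation factor.

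The list of transcription factors and early genes downstream of MAP kinases had 24 genes past the filter, of which 11 were higher, 11 lower and 2 equal in palmitate minus oleate. Past 2-fold were the stress factor Atf3 at 1.30 and the ETS factor Etv1 at 1.22 on the higher side, and the cyclin gene Ccnd1 at -1.83 and Fos at -1.28 on the lower side. Ccnd1 was 10.16, 9.97 and 8.33 on the oleate, elaidate and palmitate arrays. In that order Etv1 was 4.45, 4.98 and 5.67 and Fos was 5.73, 5.41 and 4.44. The lowest value of Etv1 and of Fos was thus not far above the filter limit of 4.14. Etv5 and Etv4, ETS factor genes often read together with Dusp6 as ERK outputs, were lower, at -0.63 and -0.49. Etv4 was 4.35 with palmitate, also near that limit. On the same list Ets2, another ETS factor gene, at 0.51 and the early gene Ier3 at 0.40 were higher. ERK activity was not measured. Egr1, under the filter, was 3.76, 3.54 and 4.40, and Phlda1 was equal on all arrays. The list thus went both ways, as the members did.

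Of 6 genes for proteins that bind messenger RNA and set its stability, 1 was higher and 5 were lower in palmitate minus oleate. Zfp36l2 at -1.25 was past 2-fold and Zfp36l1 stood at -0.87; both belong to the family of Zfp36, which promotes the decay of AU-rich transcripts and was itself at 0.09. Over all 9 lists 87 of 102 measured genes were past the filter, and 2 were at least 2-fold higher and 4 at least 2-fold lower in palmitate minus oleate, where 1.65% and 1.22% of all genes were. In palmitate minus elaidate 1 was 2-fold higher and 2 were 2-fold lower, beside 0.978% and 0.871% of all genes, and in elaidate minus oleate none was in either direction. The median over the 87 genes was -0.0043 in palmitate minus oleate and 0 in the others, beside 0 over all genes.

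**Figure D4:**
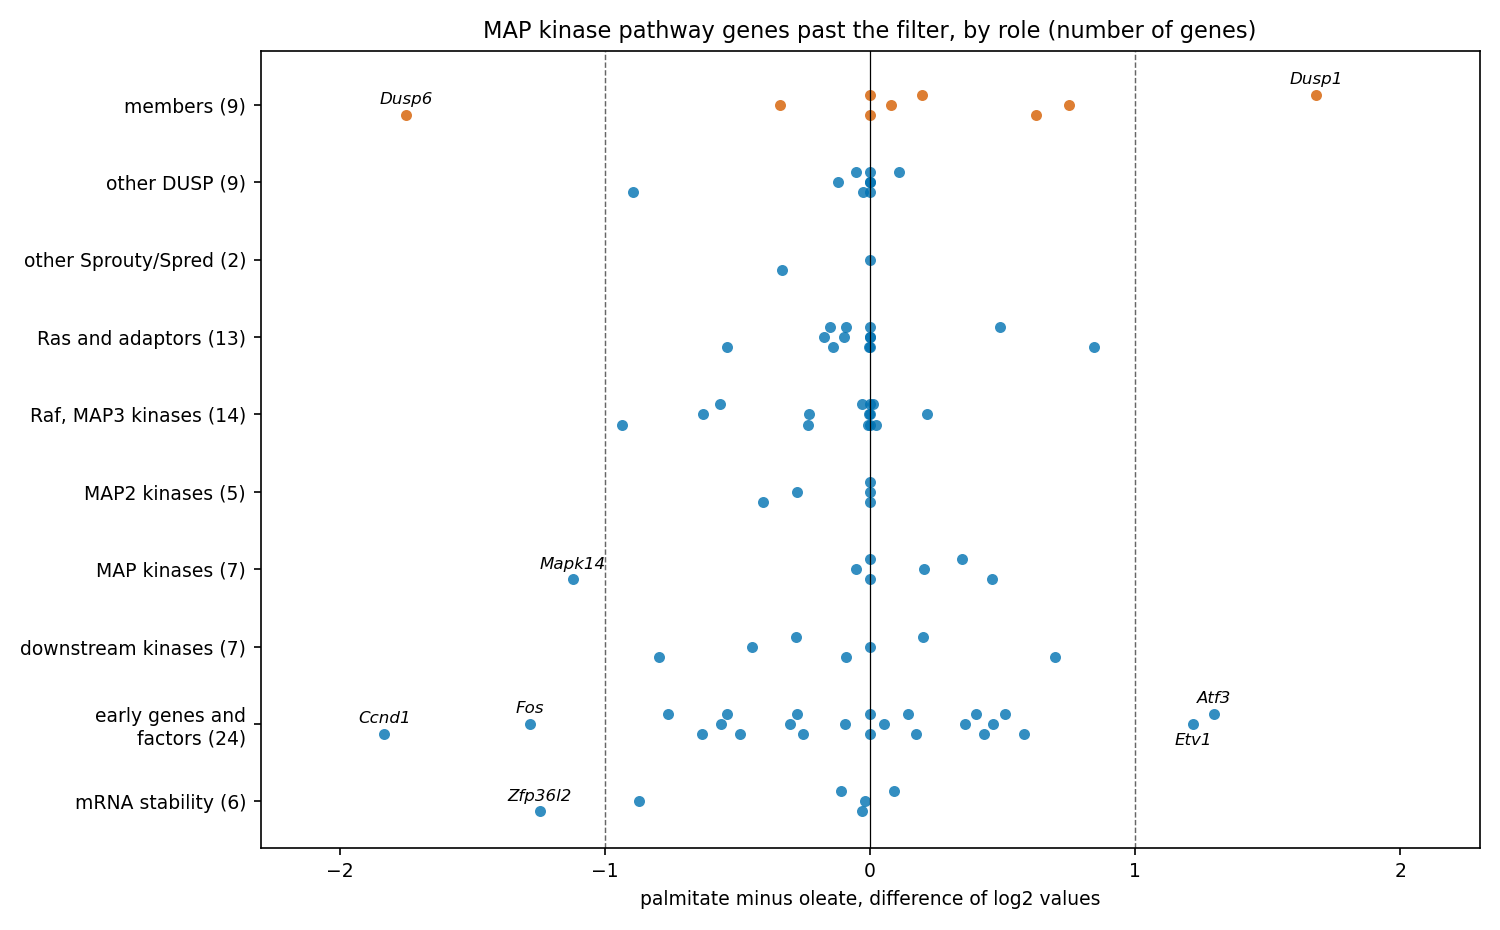
Palmitate minus oleate differences of log2 values (x axis) for the members (orange) and for genes of the MAP kinase pathway grouped by role (blue; y axis, number of genes past the filter in brackets), 1 point per gene; dashed lines mark 2-fold and genes past it are named. Dusp1, Atf3 and Etv1 lie past the line on the right and Dusp6, Ccnd1, Fos, Zfp36l2 and Mapk14 past it on the left.

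The genes most like Dusp1 and Dusp6 were found by the distance between their differences, elaidate minus oleate and palmitate minus oleate as 2 coordinates, over the 3 arrays. Closest to Dusp1 were Gpat3, an acyltransferase of triglyceride synthesis, at a distance of 0.09, Gtpbp2, a GTP-binding protein, at 0.17 and the transcription factor gene Gata3 at 0.24. Gpat3 was 3.76 with oleate, 3.76 with elaidate and 5.41 with palmitate, and so lay under the filter limit on both arrays other than palmitate. Gtpbp2 was 7.08, 7.01 and 8.60 in the same order. Closest to Dusp6 were Rab3il1, an exchange factor for Rab proteins, at 0.05, the nucleotide receptor gene P2ry6 at 0.10 and the lectin receptor gene Clec4a1 at 0.10. P2ry6 was 10.09 with oleate, 9.79 with elaidate and 8.44 with palmitate. With 3 arrays many genes can share a pattern, and the distances describe these arrays only.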

How the data were processed

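Total RNA of 3 cultures was labelled with biotin in a whole-transcript assay and hybridised to 1 Affymetrix array each, per the labels' protocols. The deposited log2 values, 1 per probe set, were made by the authors with RMA, per the submitters' processing notes; RMA corrects background, evens out the arrays' distributions and summarises probes. Its version and a genome build are not given in the sources used here. Because it fits the arrays together, values depend on all 3. Array number, not depth, limits precision.

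Of 35556 probe sets, 21218 carried 1 gene symbol and were used, 1881 carried several and 12457 were not named. Symbols were updated by gene identifier to RefSeq. Probe sets of a gene were averaged. Differences were taken between arrays, and 2-fold (1 on the log2 scale) was the limit; no test was possible. Named genes were all members, list genes past 2-fold or furthest from 0, and the 3 nearest genes to each member past 2-fold. The nearest genes left out predicted genes, small RNA genes and olfactory and vomeronasal receptors. Further list genes (Spry3, Spry4, Zfp36, Zfp36l1, Etv4, Etv5, Ets2, Ier3, Egr1 and Phlda1) were added after their values were seen. Members and lists were chosen with earlier results of these data known. The filter and fold counts were tested on simulated data. The motif search was tested only on short made-up sequences, for the cyclic AMP response element and its core. Python 3.11.15, numpy 2.4.6, pandas 2.3.3 and matplotlib 3.10.9 were used, with limma 3.58.1 in R 4.3.3 for cyclic loess.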

Additional observations from a re-analysis of the deposited data

How the results depend on the processing

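No member crossed the 2-fold limit when arrays were centred on their medians or under cyclic loess (span 0.7, 3 iterations). The largest shifts of a member's difference were 0.04 and 0.0035. The member nearest the limit was Dusp5, at 0.89 in palmitate minus elaidate. Centring moves all members alike, by too little to carry any across, so it was no test of these calls. Cyclic loess was run on values that RMA had already evened out between arrays. Taking the probe set of highest mean could not change a member, because each member had 1 probe set. Among differences other than 0, the sign changed for Dusp10 alone, in palmitate minus elaidate, from 0.02 to -0.01 with centring. Dusp2, Spry1 and Spry2 were no longer equal under either setting. Each was at -0.04 in palmitate minus oleate with centring. Under cyclic loess the values were smaller, such as 0.0011 for Spry2 in palmitate minus elaidate. With a filter at the 75th percentile, fewer genes were tested, and 157 of all genes were past 2-fold in palmitate minus oleate and 96 in palmitate minus elaidate, against 270 and 174. A 1.5-fold limit gave 74 genes for elaidate minus oleate (10 at 2-fold), 875 between palmitate and oleate and 716 between palmitate and elaidate, with 4 members in each palmitate comparison. A 3-fold limit gave 0, 81 and 48 genes; both Dusp1 and Dusp6 stayed past it against oleate and 1 member, Dusp1, against elaidate. No paired analysis was possible because each fatty acid has 1 array, and leaving out an array removes its group.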
